A study of Mus musculus with 6 samples.

Results

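The receptors through which monoamines, acetylcholine and neuropeptides act were compared between cortical neurons with a KDM6B knockout (KO) and wild-type (WT) cortical neurons. They were taken by gene symbol: every entry named as a serotonin, dopamine, adrenergic, muscarinic, nicotinic, histamine, opioid, somatostatin, neuropeptide Y or tachykinin receptor, together with the cannabinoid receptor Cnr1, the adenosine receptor Adora1 and the peptide receptors Adcyap1r1, Vipr1, Crhr1, Galr1 and Cckbr. This gave 76 of the 20040 entries of the expression table. Tests were run where the 6 libraries averaged 0.5 TPM or more, which held for 54 receptors and for 14983 genes in all. TPM is a share of transcripts scaled for gene length that sums to 1000000 in each library. On the edge of that limit, Oprk1 was tested at a mean of 0.511 TPM and Chrna10 was left out at 0.476 TPM. Chrnd and Chrne, subunits of the muscle nicotinic receptor, were listed at 0 in every library, where a count of 0 allows up to 3 counts.

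The 6 mRNA libraries came from cultured neurons of C57BL/6 embryos at embryonic day 18, 3 from KDM6B KO and 3 from WT. Both groups shared strain, tissue, age and culture. The labels give neither the kind of knockout allele nor the days in culture nor the number of embryos per library. They do not say that replicates were separate cultures, and the p-values then reflect spread between libraries that may be no more than technical. The protein made from Kdm6b is a histone demethylase that takes off a repressive mark, and the study asks what its loss does to expression.

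The libraries held 19761635 to 23503565 recovered whole counts, taken as the smallest whole numbers that fit the values. Kdm6b itself had 11.2, 11.1 and 12.0 TPM in KO and 30.9, 30.3 and 30.7 TPM in WT. The Y-linked gene Ddx3y averaged 0.135 TPM in KO and 26.1 TPM in WT, and Xist, the RNA of the inactive X chromosome, 231.5 TPM in KO and 74.0 TPM in WT. The groups thus also differed in sex mix, and for every value below sex and genotype cannot be told apart. Of all tested genes 4.15% were higher in KO and 6.74% lower. Of 5 neuronal markers 1 was higher in KO, Tubb3, at 1959 TPM in KO and 1751 TPM in WT, and 1 lower, Rbfox3, at 86.1 TPM in KO and 98.9 TPM in WT. Microglial and endothelial markers summed to 1.67 to 2.82 TPM and 1.45 to 1.75 TPM in KO, and to 1.33 to 2.04 TPM and 1.33 to 1.88 TPM in WT. Counts per library were 0 to 5 for Itgam, Cx3cr1 and Cldn5, 7 to 14 for Csf1r and 24 to 29 for Pecam1. Astrocyte and radial glia markers were present, at 4708 to 4871 TPM in KO and 4138 to 4284 TPM in WT (3 of 7 higher and 1 lower in KO), and meningeal fibroblast markers summed to 42.2 to 52.3 TPM in KO and 32.9 to 34.0 TPM in WT (3 of 4 higher). Their part in the receptor results was not tested, so receptors that glia also express are not assigned to neurons here. In bulk samples, fewer cells of a type and less RNA per cell cannot be told apart.

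Most of these receptors are G protein-coupled: those acting through Gs raise cyclic AMP, those acting through Gi/o lower it and open potassium channels, and those acting through Gq/11 drive phospholipase C and calcium release. Nicotinic receptors and the serotonin receptor with Htr3a subunits are ligand-gated cation channels. In cortex they let neuromodulators set the excitability of excitatory cells and interneurons.

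Of the 54 tested receptors, 15 (27.8%) passed the test between KO and WT, with a limma adjusted p under 0.05 after Benjamini-Hochberg correction across all tested genes, against 10.9% of all tested genes. The 6 higher in KO were Chrna3, Tacr3, Chrna5, Chrm3, Adra2a and Sstr1, while 4.15% of all tested genes were higher. The 9 lower in KO were Crhr1, Oprd1, Vipr1, Chrm1, Hrh1, Cckbr, Drd1a, Adrb1 and Hrh3, while 6.74% of all tested genes were lower. The changes were moderate, with absolute log2 fold changes of 0.16 to 0.77. Over the 54 receptors the median log2 fold change was -0.09 and over all tested genes -0.02. The groups did not overlap in 33 receptors (31.7% of all tested genes). KO lay above WT in 13 of them (12.5% of all tested genes) and below in 20 (19.2% of all). Summed over the 76 receptors, expression was 989, 959 and 990 TPM in KO and 1024, 1018 and 1024 TPM in WT. Every KO sum was below every WT sum.

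**Figure D1:**
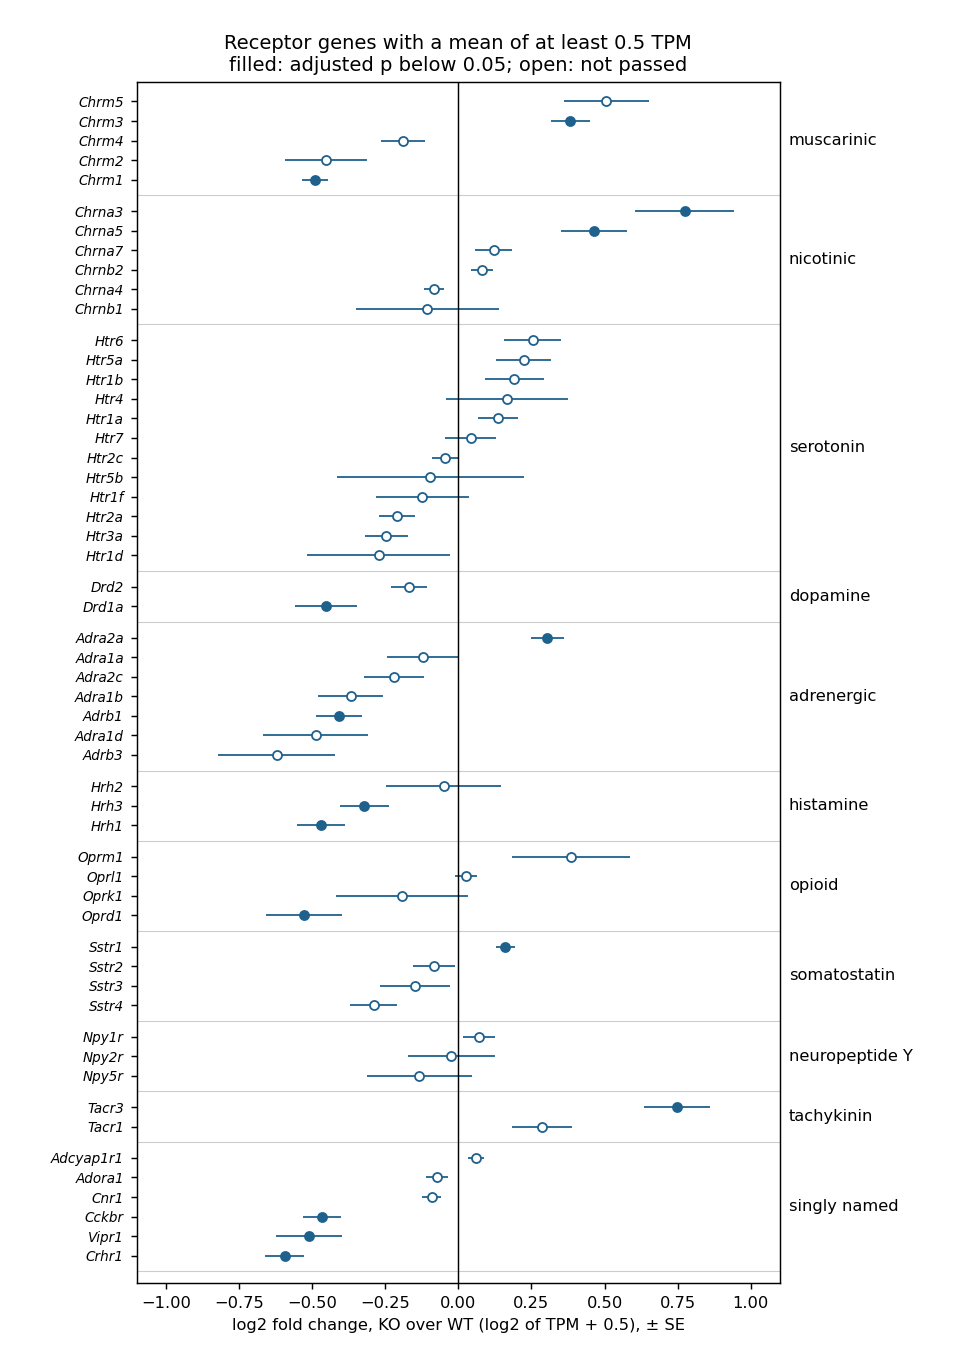
Log2 fold change of KO over WT with its standard error for the 54 tested receptor genes, grouped by ligand; filled points passed the test and open points did not. Filled points stand on both sides of 0 in the muscarinic and adrenergic families, and no serotonin or neuropeptide Y receptor is filled.

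**Figure D2:**
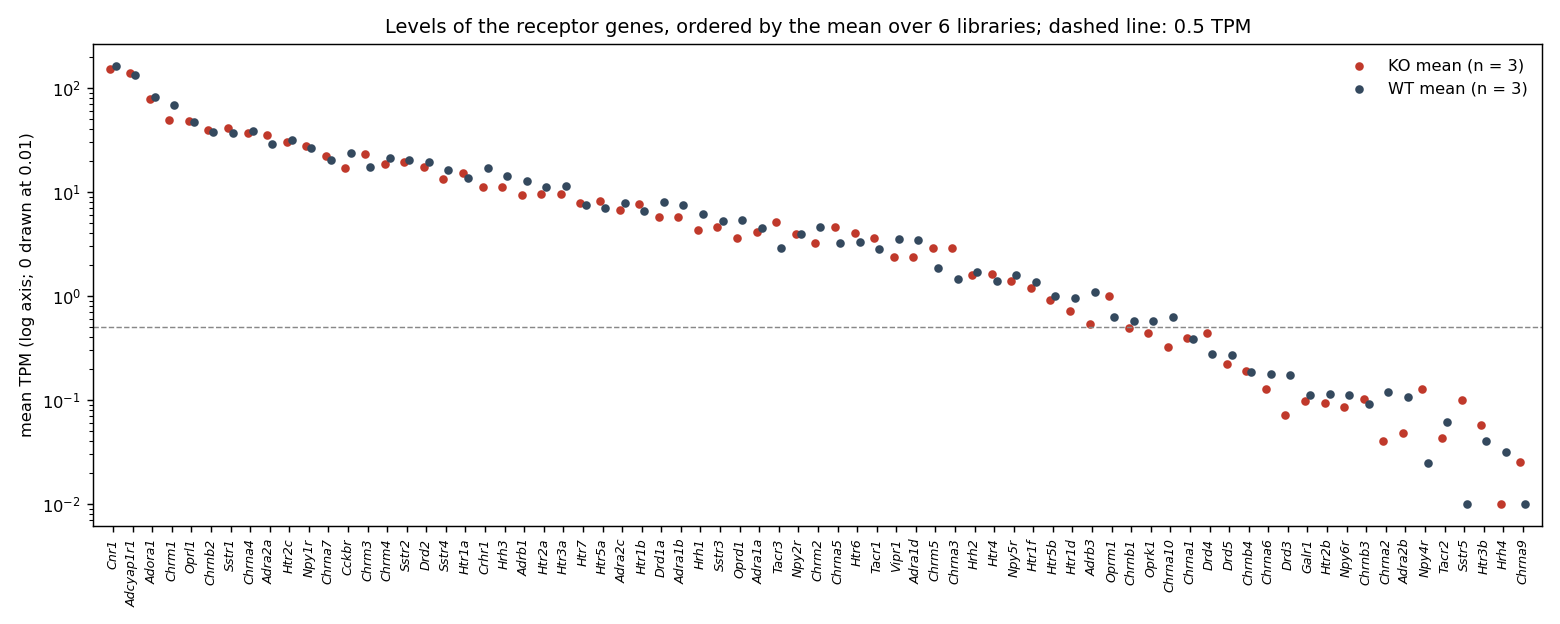
Mean TPM of receptor genes in KO and WT (3 libraries each) on a log axis, ordered by the mean over all 6 libraries; Chrnd and Chrne, at 0 throughout, are left out. Cnr1, Adcyap1r1 and Adora1 lead, receptors right of Oprk1 were not tested, and a group mean of 0 is drawn at 0.01.

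The 4 receptors whose call held in every one of the 16 alternative analyses were Chrm1, Crhr1 and Cckbr, lower in KO, and Tacr3, higher in KO. The other 11 lost theirs in at least 1, and the libraries concerned are named with each. All 15 called receptors rested on at least 31 counts in every library.

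The acetylcholine receptors moved in opposite directions within one family. The muscarinic receptors comprise the Gq/11-coupled Chrm1, Chrm3 and Chrm5 and the Gi/o-coupled Chrm2 and Chrm4. Chrm1, the main muscarinic receptor of cortical excitatory neurons (chromosome 19, 8663789 to 8683587, GRCm38), had 48.7, 46.3 and 52.0 TPM in KO and 70.0, 67.3 and 69.4 TPM in WT. Its level fell to 71.1% of the WT mean (log2 fold change -0.49 ± 0.04 SE; limma adjusted p = 8.1e-04). Chrm3 (chromosome 13, 9875486 to 10360847) had 24.5, 22.3 and 22.2 TPM in KO and 17.0, 16.5 and 19.1 TPM in WT. It rose 1.31-fold (log2 fold change 0.38 ± 0.07, adjusted p = 0.0111). Neither gene's groups overlapped. Leaving out WT replicate 1 ended the Chrm3 call (adjusted p = 0.0521). Within each library the ratio of Chrm1 to Chrm3, which does not depend on the library-wide scaling, was 1.99, 2.08 and 2.34 in KO and 4.13, 4.07 and 3.64 in WT. An exon of Chrm1 overlaps Gm22820 on the opposite strand, and since strand use is not stated, reads of the pair cannot be separated.

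The other muscarinic receptors did not pass. Chrm5 had 2.86 ± 0.330 TPM in KO and 1.87 ± 0.240 TPM in WT (mean ± SD, n = 3 each; limma adjusted p = 0.064), Chrm2 had 3.23 ± 0.332 TPM in KO and 4.63 ± 0.814 TPM in WT (adjusted p = 0.080), and Chrm4 had 18.7 ± 1.93 TPM in KO and 21.4 ± 0.833 TPM in WT (adjusted p = 0.15). Chrm5 passed after quantile normalization (adjusted p = 0.0475), Chrm2 with limma voom on recovered counts (0.0489) and Chrm4 without KO replicate 1 (0.0344). Summed over the 5 genes, muscarinic expression was 91.9 to 101 TPM in KO and 112 to 117 TPM in WT.

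Among the 6 tested nicotinic subunits, 2 neighbouring genes were higher in KO, where 4.15% of all tested genes were higher. Chrna5 encodes an accessory subunit and Chrna3 a ligand-binding subunit typical of autonomic ganglia and the habenula. Chrna3 (chromosome 9, 55010111 to 55026562) had 2.32, 2.75 and 3.58 TPM in KO and 1.39, 1.58 and 1.41 TPM in WT. It rose 1.98-fold (log2 fold change 0.77 ± 0.17 SE, adjusted p = 0.0257). KO replicate 3 was the highest, and all KO libraries lay above all WT libraries. Chrna5 (chromosome 9, 54980880 to 55007779) had 4.79, 4.53 and 4.42 TPM in KO and 2.82, 3.59 and 3.16 TPM in WT. It rose 1.43-fold (log2 fold change 0.46 ± 0.11, adjusted p = 0.0379). The loci lie 2331 bases apart on opposite strands, with no overlap of exons. Chrnb4, the next gene of that cluster, 1591 bases beyond Chrna3, was too low to test, with 7, 2 and 5 counts in KO and 6, 2 and 6 in WT. Both calls were lost in 5 of the 6 fits with 1 library left out. Chrna3 kept its call without KO replicate 1 and lost it without KO replicate 2, KO replicate 3 or any WT replicate (limma adjusted p up to 0.082), and Chrna5 kept it without WT replicate 2 and lost it without WT replicate 1, WT replicate 3 or any KO replicate (up to 0.1134) and also with no filter (0.0700).

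The abundant brain subunits did not pass. Chrnb2, the partner of Chrna4 in the main high-affinity nicotinic receptor of the brain, had 39.5, 39.1 and 40.7 TPM in KO and 37.3, 38.8 and 36.5 TPM in WT (limma adjusted p = 0.22). Chrna4 had 36.5 ± 0.934 TPM in KO and 38.7 ± 0.469 TPM in WT (SD, n = 3 each; adjusted p = 0.18). The groups did not overlap in either gene, where the shifts were of 1.06-fold and to 94.4% of WT. An exon of Chrnb2 overlaps Adar on the opposite strand. Chrna7, which forms homomeric calcium-permeable receptors, had 21.9 ± 1.32 TPM in KO and 20.1 ± 1.17 TPM in WT (adjusted p = 0.27). Of the 15 nicotinic genes 9 were too low to test. Chrnb1, at 0.490 TPM in KO and 0.577 TPM in WT, was the other tested one.

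**Figure D3:**
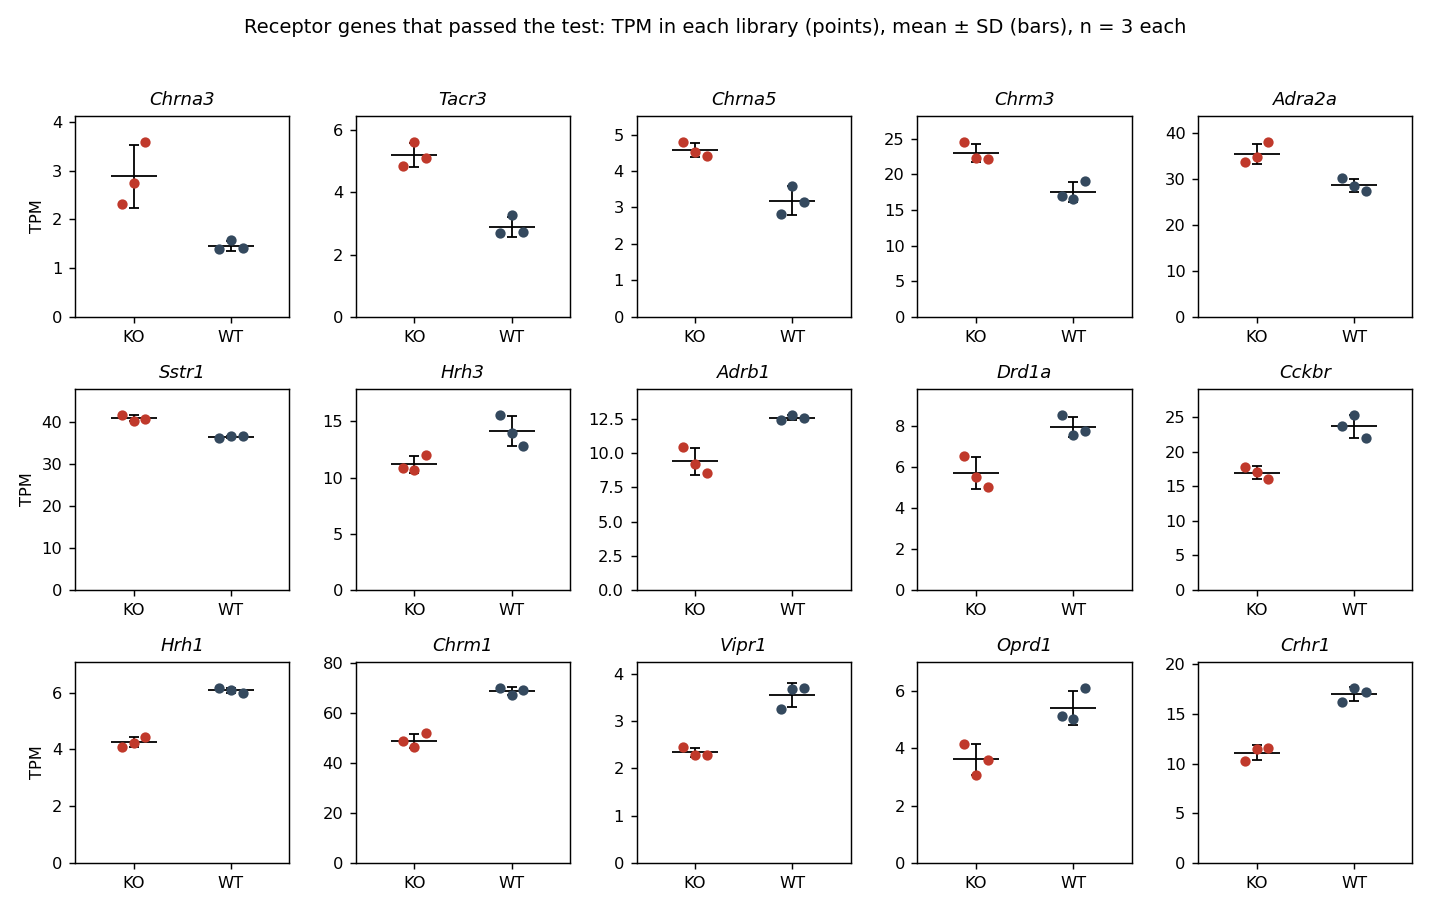
TPM of the 15 receptor genes that passed the test, 1 panel each, with 3 KO and 3 WT libraries as points and the mean with its SD as bars; each y axis starts at 0. In all panels the KO points lie on 1 side of the WT points, from Chrna3 at 1.98-fold to Crhr1 at 65.3% of WT.

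No serotonin receptor passed the test among the 12 tested of 14. By limma 4 had an unadjusted p under 0.05, where 3977 of all 14983 tested genes had one. With limma voom on recovered counts Htr5a passed (adjusted p = 0.026). Htr2c, a Gq/11-coupled receptor on the X chromosome, was the most abundant, with 31.6, 30.3 and 29.2 TPM in KO and 30.4, 32.3 and 31.3 TPM in WT, and its groups overlapped. Htr1a, the main inhibitory serotonin receptor of cortical and hippocampal cells, had 15.1 ± 0.597 TPM in KO and 13.7 ± 1.07 TPM in WT (SD, n = 3 each; limma adjusted p = 0.25). The groups did not overlap for Htr2a, a receptor of psychedelic drugs, at 85.9% of WT (adjusted p = 0.069), and for Htr3a, a marker of interneurons of the caudal ganglionic eminence, at 83.7% (adjusted p = 0.078). Htr6 and Htr5a lay above WT in all KO libraries, at 1.22-fold and 1.17-fold (adjusted p = 0.14 and 0.17). Htr2a and Htr6 passed without a variance trend (adjusted p = 0.047 and 0.026). Htr2b and Htr3b were below the limit for testing.

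The dopamine receptors were Drd2 and Drd1a, the older symbol of Drd1, with Drd3, Drd4 and Drd5 too low to test at 0 to 7 counts per library. Drd1a, which couples to Gs (chromosome 13, 54051183 to 54055705), had 6.54, 5.51 and 5.03 TPM in KO and 8.50, 7.56 and 7.74 TPM in WT. It fell to 71.8% of the WT mean (log2 fold change -0.45 ± 0.11 SE; adjusted p = 0.0335), with no overlap between groups. The Gi/o-coupled Drd2 had 16.6, 16.6 and 18.4 TPM in KO and 18.2, 20.0 and 19.9 TPM in WT, with overlap (limma adjusted p = 0.13). Within libraries the ratio of Drd1a to Drd2 overlapped between groups, at 0.395, 0.332 and 0.274 in KO and 0.467, 0.378 and 0.389 in WT. The Drd1a call was lost with KO replicate 2, KO replicate 3 or any WT replicate left out (adjusted p up to 0.12) and kept without KO replicate 1. It was also lost with no filter, after quantile normalization and with no variance trend (adjusted p up to 0.065). Striatal neurons carry these receptors at high levels. Of 9 tested markers of striatal projection neurons 4 were lower in KO and 1 higher (6.74% and 4.15% of all tested genes). Their summed levels were 266 to 278 TPM in KO and 293 to 308 TPM in WT. The part of such cells in the Drd1a result was not tested.

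The adrenergic receptors also moved both ways. Adra2a, a Gi/o-coupled receptor for noradrenaline that acts on nerve endings and on postsynaptic spines (chromosome 19, 54044151 to 54048982), had 33.7, 34.7 and 37.9 TPM in KO and 30.1, 28.3 and 27.3 TPM in WT. It rose 1.24-fold (log2 fold change 0.31 ± 0.06 SE, adjusted p = 0.0141), and lost its call without WT replicate 2 (0.0507). Adrb1, the Gs-coupled beta receptor most expressed here (chromosome 19, 56722199 to 56733113), had 10.47, 9.19 and 8.56 TPM in KO and 12.4, 12.8 and 12.6 TPM in WT. It fell to 74.7% of WT (log2 fold change -0.41 ± 0.08, adjusted p = 0.0166). Adrb1 kept its call without KO replicate 1 and lost it with any other library left out (adjusted p up to 0.06004). The ratio of Adra2a to Adrb1 within libraries was 3.22, 3.78 and 4.43 in KO and 2.423, 2.216 and 2.1696 in WT. This ratio, like those of Chrm1 to Chrm3 and Tacr3 to Tac2, pairs genes called in opposite directions and adds no separate support. The Gq/11-coupled Adra1b and Adra1d had 75.8% and 68.1% of the WT level (limma adjusted p = 0.075 and 0.13), and both passed with limma voom on recovered counts (adjusted p = 0.0127 and 0.0378). Adrb3 had 0.540 ± 0.0928 TPM in KO and 1.098 ± 0.127 TPM in WT (SD, n = 3 each), on 8 to 13 counts per KO library and 20 to 24 per WT library. Its adjusted p was 0.092, with values down to 0.0217 without a variance trend. Adra2c and Adra1a overlapped between groups, and Adra2b was too low to test.

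Of the 3 tested histamine receptors 2 were lower in KO, where 6.74% of all tested genes were lower. Hrh1, a Gq/11-coupled receptor and the target of sedating antihistamines (chromosome 6, 114397936 to 114483296), had 4.10, 4.22 and 4.45 TPM in KO and 6.16, 6.10 and 5.98 TPM in WT. It fell to 70.0% of the WT mean (log2 fold change -0.47 ± 0.08 SE; adjusted p = 0.0111). Its call was lost without WT replicate 1 (0.0504). Hrh3, the Gi/o-coupled receptor by which histamine limits transmitter release (chromosome 2, 180099465 to 180104488), had 10.9, 10.6 and 12.0 TPM in KO and 15.5, 14.004 and 12.8 TPM in WT. It fell to 79.2% of WT (log2 fold change -0.32 ± 0.08, adjusted p = 0.0472), close to the threshold. Of the 6 fits with 1 library left out only that without WT replicate 3 kept the Hrh3 call, with adjusted p up to 0.1411 in the others, and median centring, quantile normalization, no filter and no variance trend each ended it (adjusted p up to 0.0872). The ratio of Hrh1 to Hrh3 within libraries overlapped between groups, at 0.377, 0.3961 and 0.370 in KO and 0.3960, 0.436 and 0.466 in WT. An exon of Hrh3 overlaps Gm17180 on the opposite strand. Hrh2, coupled to Gs, had 1.599 ± 0.0298 TPM in KO and 1.71 ± 0.483 TPM in WT.

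Of the 15 receptors that passed, the peptide receptor with the largest rise was Tacr3. Tacr3, the receptor preferred by neurokinin B (chromosome 3, 134829007 to 134934579), had 4.85, 5.61 and 5.10 TPM in KO and 2.68, 3.27 and 2.73 TPM in WT. It rose 1.79-fold (log2 fold change 0.75 ± 0.11 SE, adjusted p = 0.0060) on 127 to 167 counts per KO library and 72 to 85 per WT library. Tacr1, the substance P receptor, had 3.72, 3.57 and 3.46 TPM in KO and 2.87, 2.94 and 2.73 TPM in WT, with no overlap but an adjusted p of 0.12 by limma. It passed without a variance trend and with voom on recovered counts (adjusted p = 0.0212 and 0.0346). Tacr2 had 0 to 2 counts per library.

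Crhr1, the receptor of corticotropin-releasing hormone, Gs-coupled (chromosome 11, 104132855 to 104175523), had the largest fall of the called receptors. It had 10.2, 11.5 and 11.6 TPM in KO and 16.2, 17.6 and 17.2 TPM in WT, a fall to 65.3% of the WT mean (log2 fold change -0.59 ± 0.07 SE; adjusted p = 0.0018). Cckbr, the brain cholecystokinin receptor, Gq/11-coupled (chromosome 7, 105425731 to 105470898), had 17.9, 17.1 and 16.1 TPM in KO and 23.8, 25.3 and 22.007 TPM in WT. It fell to 71.8% of WT (log2 fold change -0.47 ± 0.06, adjusted p = 0.0040). Vipr1, a Gs-coupled receptor of vasoactive intestinal peptide (chromosome 9, 121642716 to 121672954), had 2.45, 2.30 and 2.28 TPM in KO and 3.26, 3.69 and 3.70 TPM in WT. It fell to 66.0% of WT (log2 fold change -0.51 ± 0.11, adjusted p = 0.0274), and lost its call in all 6 fits with 1 library left out (adjusted p 0.0558 to 0.0838). The galanin receptor Galr1 had 0 to 4 counts per library and was not tested. The Vipr1 relative Adcyap1r1, one of the most abundant receptors, had 136, 139 and 143 TPM in KO and 136, 134 and 133 TPM in WT, and did not pass (limma adjusted p = 0.21).

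Of the opioid receptors, Gi/o-coupled throughout, the delta receptor Oprd1 (chromosome 4, 132110726 to 132144486) had 4.16, 3.08 and 3.61 TPM in KO and 5.13, 5.04 and 6.10 TPM in WT. It fell to 66.7% of the WT mean (log2 fold change -0.53 ± 0.13 SE; adjusted p = 0.0386). The call held without KO replicate 1 and was lost with any other library left out (adjusted p up to 0.1158). It was also lost with no filter, after quantile normalization and with no variance trend (adjusted p up to 0.0725). The mu receptor Oprm1, the target of morphine, had 0.951, 0.815 and 1.204 TPM in KO and 0.638, 0.658 and 0.606 TPM in WT, without overlap but on 12 to 21 counts (limma adjusted p = 0.28). The kappa receptor Oprk1 had 0.442 TPM in KO and 0.579 TPM in WT (adjusted p = 0.65). The nociceptin receptor Oprl1, the most abundant of the family, had 48.4, 46.9 and 47.2 TPM in KO and 44.7, 47.6 and 47.5 TPM in WT.

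The somatostatin receptors inhibit release and firing through Gi/o. Sstr1 (chromosome 12, 58211772 to 58214444) had 41.5, 40.1 and 40.7 TPM in KO and 36.1, 36.5 and 36.6 TPM in WT. It rose 1.12-fold (log2 fold change 0.16 ± 0.03 SE, adjusted p = 0.0201). It lost the call without KO replicate 1, KO replicate 3, WT replicate 1 or WT replicate 2 (adjusted p up to 0.0738). Sstr4 had 13.3 ± 1.18 TPM in KO and 16.3 ± 1.2015 TPM in WT (SD, n = 3 each; limma adjusted p = 0.0596, and 0.0483 with the filter at 2 TPM), and Sstr2 and Sstr3 overlapped between groups. In sparse counts Sstr5 had 3, 2 and 1 counts in KO and 0 in each WT library. Of the neuropeptide Y receptors, Npy1r had 29.8, 27.4 and 26.2 TPM in KO and 26.3, 25.7 and 27.2 TPM in WT, and 0 of the 3 tested had an unadjusted p under 0.05 by limma or a call with voom.

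Both Cnr1 and Adora1 are Gi/o-coupled and dampen transmitter release. Cnr1, the cannabinoid receptor of cholecystokinin interneurons and many excitatory terminals, had 158, 147 and 153 TPM in KO and 161, 160 and 167 TPM in WT. The groups did not overlap, but the shift was to 93.9% of WT and missed the threshold (limma adjusted p = 0.12), which it passed with voom on recovered counts (0.0475). Adora1 had 77.6 ± 1.40 TPM in KO and 81.7 ± 3.45 TPM in WT (SD, n = 3 each), with overlap. Together with Adcyap1r1 these genes made up 37.4% of the summed TPM of all 76 receptors.

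Grouped by main coupling, 2 of 12 tested Gq/11 receptors were higher in KO and 3 lower, where 4.15% of all tested genes were higher and 6.74% lower. Of 25 Gi/o receptors 2 were higher and 2 lower, 16% in all, close to the 10.9% of all tested genes. Of 10 Gs receptors 4 were lower (Drd1a, Adrb1, Vipr1 and Crhr1). By limma 6 had an unadjusted p under 0.05, as had 3977 of all 14983 tested genes. Voom called 5 lower and 0 higher, and 1431 lower and 1182 higher of all 14983. Of 7 channel subunits 2 were higher, also with voom, which called 0 lower. Their summed levels were 183 to 186 TPM in KO and 189 to 191 TPM in WT for Gs, 152 to 162 TPM in KO and 181 to 183 TPM in WT for Gq/11, 508 to 529 TPM in KO and 529 to 541 TPM in WT for Gi/o, and 115 to 120 TPM in KO and 113 to 116 TPM in WT for channels. Whether the classes differ from each other was not tested.

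The peptides that these receptors bind were set beside them. Of 14 tested ligand genes 8 were lower in KO and 1 higher, where 6.74% of all tested genes were lower and 4.15% higher. The median log2 fold change of the 14 was -0.52, and that of all tested genes -0.02. Tac2, which encodes neurokinin B in the mouse, had 1.42, 1.287 and 1.027 TPM in KO and 6.19, 5.89 and 7.84 TPM in WT (log2 fold change -2.03 ± 0.15 SE; limma adjusted p = 3.2e-04; 6 to 9 counts per KO library and 36 to 52 per WT library), so peptide and receptor genes moved in opposite directions. The ratio of Tacr3 to Tac2 was 3.42, 4.36 and 4.97 in KO and 0.434, 0.555 and 0.348 in WT. Vip and Cck were lower, as were their receptor genes Vipr1 and Cckbr: Vip had 9.53 ± 0.537 TPM in KO and 20.3 ± 1.75 TPM in WT, and Cck 135 ± 12.0 TPM in KO and 226 ± 7.67 TPM in WT (SD, n = 3 each). Other receptor genes of these peptides were not lower: Vipr2 overlapped between groups (1.06-fold), and Cckar, under 0.5 TPM, lay above WT in all KO libraries. Adcyap1, Npy and Tac1 were also lower, at 57.2%, 66.4% and 62.1% of WT. Adcyap1r1, Npy1r and Tacr1 did not pass, at 1.04-fold, 1.05-fold and 1.26-fold. Penk, the precursor of enkephalins that bind the delta receptor, rose 1.43-fold (log2 fold change 0.52 ± 0.03, adjusted p = 1.7e-04), while Oprd1 was lower. The other opioid receptor genes did not pass: Oprm1 lay above WT in all KO libraries (1.56-fold), Oprl1 was at 1.02-fold and Oprk1 at 76.3% of WT. Sst, the somatostatin gene, fell to 73.0% of WT, while Sstr1 was higher. Sstr2, Sstr3 and Sstr4 did not pass, at 94.1%, 89.0% and 81.4% of WT, and Sstr4 lay below WT in all KO libraries. Crh, the ligand gene of Crhr1, had 1.69, 1.25 and 0.573 TPM in KO and 0.956, 0.439 and 0.606 TPM in WT, with overlap. Several of these peptides mark interneurons, and Vip, Sst and Npy stand in both lists. Of 11 tested interneuron markers 8 were lower and 1 higher, summing to 1066 to 1134 TPM in KO and 1383 to 1441 TPM in WT, and of 5 markers of glutamatergic neurons 3 were lower, summing to 931 to 979 TPM in KO and 1285 to 1309 TPM in WT. Their part in the receptor results was not tested.

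**Figure D4:**
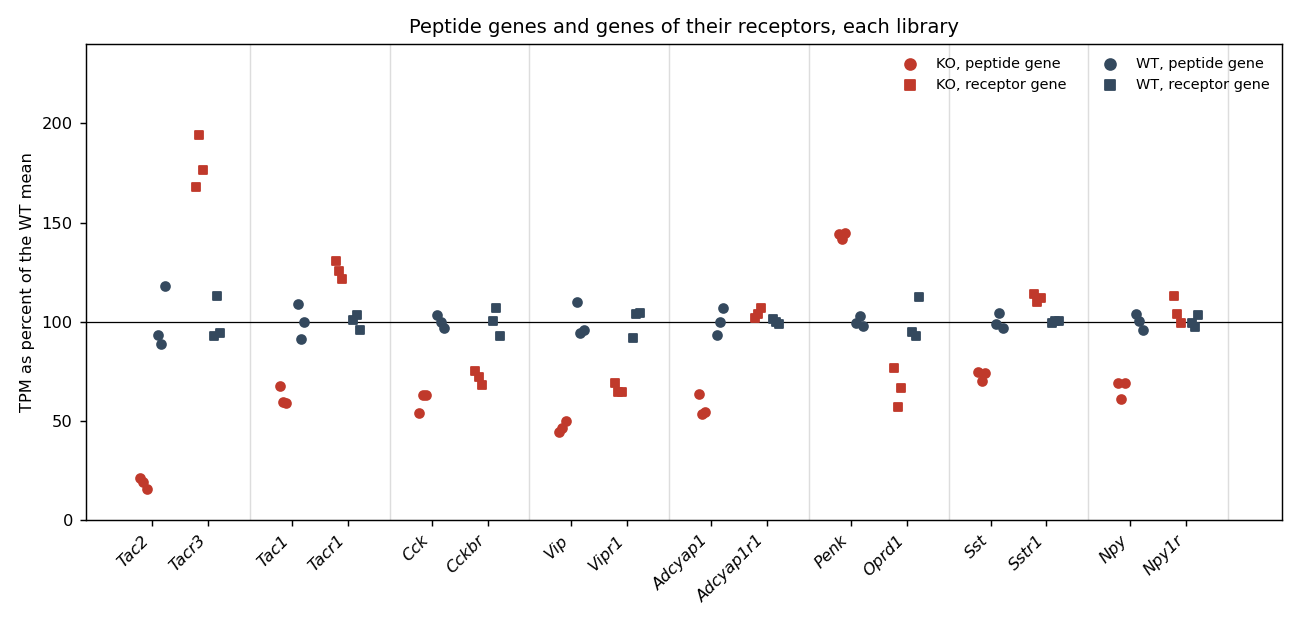
TPM of 8 peptide genes (circles) and of a receptor gene for each (squares) as percent of the WT mean, in 3 KO and 3 WT libraries. Tac2 in KO lies far below and Tacr3 above the WT libraries, Cck with Cckbr and Vip with Vipr1 both lie below, and Penk lies above while Oprd1 lies below. Tac1, Adcyap1, Sst and Npy lie below without a fall of the receptor gene shown beside each. Other genes of the same receptor families, such as Oprm1 and Sstr4, are not drawn.

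Genes that make, move or break down monoamines and acetylcholine gave 0 calls among 18 tested of 27 listed, by limma and by voom alike. With no filter on low values 1 was lower, and with no variance trend 1 was higher. At an unadjusted p under 0.05 limma had 2 of the 18, and 3977 of all 14983 tested genes. Markers of the modulatory neurons themselves were scarce: Th, the first enzyme of catecholamine synthesis, had 0.995 TPM in KO and 1.51 TPM in WT, Chat, the acetylcholine-synthesizing enzyme, 0 to 2 counts in KO and 2 to 4 in WT, and Slc6a4, the serotonin transporter, under 0.3 TPM in every library. Downstream, 1 of 20 G protein subunit genes passed, Gnb4, at 85.1% of WT (voom called 4 higher and 1 lower). Of 30 tested effectors, kinases and arrestins 5 were lower and 1 higher, 20% in all, where 10.9% of all tested genes passed. The higher one was Prkar2b, at 1.08-fold (limma adjusted p = 0.0453). Kcnj9 and Kcnj6, potassium channels opened by Gi/o receptors, fell to 76.1% and 74.0% of WT (limma adjusted p = 0.0028 and 0.0254), Prkcb, a protein kinase C downstream of Gq/11, to 88.4%, and Adrbk2, a kinase that desensitizes receptors, to 86.9%, and the adenylyl cyclase Adcy9 to 85.5%. Lypd1, which encodes a prototoxin that binds nicotinic receptors, fell to 73.6% of WT and was the 1 call among 8 tested genes of nicotinic accessory proteins. Of 16 genes for endocannabinoid and adenosine metabolism 1 was lower, Faah, the enzyme that degrades anandamide, at 88.9%.

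Among 20 tested transmitter and peptide receptors of related families that the symbol rule leaves out, 3 passed, all higher in KO. This was 15%, close to the 10.9% of all tested genes. Voom called 3 higher and 3 lower, and the fit with no filter 4 higher. With a pseudocount of 0.1 TPM, and with the filter at 2 TPM, 2 were higher. Trhr, the receptor of thyrotropin-releasing hormone, had 18.55, 19.4 and 17.5 TPM in KO and 9.70, 10.48 and 11.7 TPM in WT (log2 fold change 0.77 ± 0.08 SE; limma adjusted p = 0.0012). The orexin receptor Hcrtr2 had 6.845, 8.07 and 8.155 TPM in KO and 4.33, 4.27 and 4.47 TPM in WT, 1.77-fold higher (adjusted p = 0.0024). Npffr1, a receptor of RF-amide peptides, had 0.9602, 1.45 and 1.04 TPM in KO and 0.429, 0.443 and 0.408 TPM in WT (limma adjusted p = 0.0476) on 4 to 15 counts per library.

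Promoter windows of 300 bases, from 250 before to 50 after the first listed start, were read from RefSeq (GRCm38.p6) for 58 of the 76 receptors. They held 1 to 47 CpG dinucleotides with a median of 14, where the first listed windows of 27025 genes held 0 to 65 with a median of 7. In the 5 windows of receptors higher in KO the number was 5 to 28 (median 11), and in the 8 windows of receptors lower in KO it was 15 to 47 (median 29.5). These ranges overlap, and the difference was not tested. Chrm1 and Sstr1 had no window. Shown are the windows of the 3 receptors with one among those called in every alternative, of the neighbours Chrna5 and Chrna3, and of Hrh3, which had the most CpG of the 58, each 5′ to 3′ on the strand of the gene with CpG in capitals.
Tacr3 (chr3:134828757-134829056, plus strand): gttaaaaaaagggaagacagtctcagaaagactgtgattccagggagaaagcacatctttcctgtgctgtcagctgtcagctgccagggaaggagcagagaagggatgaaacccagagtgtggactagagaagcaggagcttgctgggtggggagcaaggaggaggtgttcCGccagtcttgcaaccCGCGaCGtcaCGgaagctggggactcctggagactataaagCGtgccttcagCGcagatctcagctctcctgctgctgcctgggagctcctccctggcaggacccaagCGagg
Chrna5 (chr9:54980630-54980929, plus strand): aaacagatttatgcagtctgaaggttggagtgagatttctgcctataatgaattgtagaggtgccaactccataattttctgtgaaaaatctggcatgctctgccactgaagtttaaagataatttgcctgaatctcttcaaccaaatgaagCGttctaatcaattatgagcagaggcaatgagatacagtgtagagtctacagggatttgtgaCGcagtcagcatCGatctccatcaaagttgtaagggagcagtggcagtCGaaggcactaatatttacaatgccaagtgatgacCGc
Chrna3 (chr9:55026513-55026812, minus strand): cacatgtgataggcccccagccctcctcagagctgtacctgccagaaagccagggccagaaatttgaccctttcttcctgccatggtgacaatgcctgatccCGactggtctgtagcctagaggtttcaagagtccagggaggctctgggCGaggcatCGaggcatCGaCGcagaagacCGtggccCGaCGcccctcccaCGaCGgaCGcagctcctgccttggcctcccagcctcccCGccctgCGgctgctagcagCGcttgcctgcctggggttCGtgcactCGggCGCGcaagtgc
Cckbr (chr7:105425481-105425780, plus strand): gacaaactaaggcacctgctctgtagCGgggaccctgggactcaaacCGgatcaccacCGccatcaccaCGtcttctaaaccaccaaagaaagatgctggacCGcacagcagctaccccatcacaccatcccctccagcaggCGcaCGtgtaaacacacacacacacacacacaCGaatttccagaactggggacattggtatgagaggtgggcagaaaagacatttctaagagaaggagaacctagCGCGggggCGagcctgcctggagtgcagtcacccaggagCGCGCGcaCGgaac
Crhr1 (chr11:104132531-104132830, plus strand): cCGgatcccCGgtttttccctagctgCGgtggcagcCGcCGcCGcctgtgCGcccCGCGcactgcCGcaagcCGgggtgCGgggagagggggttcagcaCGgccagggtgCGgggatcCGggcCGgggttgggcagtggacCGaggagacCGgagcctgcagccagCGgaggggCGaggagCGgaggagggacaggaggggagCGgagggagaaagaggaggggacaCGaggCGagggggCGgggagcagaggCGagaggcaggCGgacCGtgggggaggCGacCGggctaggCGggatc
Hrh3 (chr2:180104358-180104657, minus strand): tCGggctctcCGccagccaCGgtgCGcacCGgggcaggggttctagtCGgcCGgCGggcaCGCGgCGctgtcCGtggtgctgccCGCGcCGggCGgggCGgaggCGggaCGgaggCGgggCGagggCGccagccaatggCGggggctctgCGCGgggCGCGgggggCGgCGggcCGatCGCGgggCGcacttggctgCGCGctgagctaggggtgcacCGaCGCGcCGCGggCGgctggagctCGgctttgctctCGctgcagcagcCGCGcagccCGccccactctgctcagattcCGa
These windows held 8 CpG in Tacr3, 5 in Chrna5, 18 in Chrna3, 15 in Cckbr, 31 in Crhr1 and 47 in Hrh3. The neighbours Chrna5 and Chrna3, both higher in KO, differ in CpG number. Of 3 short motifs searched on both strands, the cAMP response element TGACGTCA was in 1 of the 58 windows (1.88% of all genes), the E-box CAGATG in 5 (17.2% of all) and the TATA box TATAAA in 4 (14.2% of all). Among the called receptors Hrh1 held CAGATG, and Tacr3 and Adra2a held TATAAA.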

How the data were processed

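mRNA of 6 libraries of cultured mouse cortical neurons was compared, 3 KDM6B KO and 3 WT. The deposited values are TPM, 1 column per library, although the table's name says FPKM: each column sums to 1000000. The submitters' processing notes name bcl2fastq 2.17, FastQC 0.11.2, TopHat, Picard 1.127, featureCounts, edgeR and mm10 with no role or order. The sources used here do not give the annotation, the strand setting or the scaling step. TPM are shares, so more of the abundant genes means less of every other.

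Whole counts were recovered as the smallest whole numbers that fit all libraries, for 100.0% of the 19369 entries above 0 (tolerance 0.001 counts plus 2e-08 of the count), with implied lengths whole to 0.02 bases in 99.99%. They served to state depth and for 1 alternative. A different choice of multiples would change totals, not TPM.

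The test was limma 3.58.1 (R 4.3.3, variance trend, no covariates) on log2(TPM + 0.5) for the 14983 genes averaging 0.5 TPM or more, two-sided, Benjamini-Hochberg over all. Log2 fold changes of low genes come out too small on this scale; folds and percents of WT in the text are ratios of group means. The method was also run on simulated counts with the same spread set for all genes, and no result here rests on that run. Pairs of libraries differed by more than counting noise, 1.26 to 1.99 times its expectation within groups, so none was dropped as a copy.

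Per-library values are given for each receptor that passed and for the most abundant of each family. From each other list up to 4 members that passed with the smallest p are named, some by group means or percents of WT; further genes were named after their values were seen. The receptors and lists were chosen with earlier results of these data known. Positions are from GENCODE M21 (GRCm38, the same build as mm10), promoters from RefSeq. Alternatives were other pseudocounts (0.1 and 1), no filter or 2 TPM, median centring, quantile normalization, no or robust variance trend, limma voom on recovered counts, a replicate block and leaving out each library. The 27 names turned into dates by a spreadsheet were kept and never named. Of the 76 receptors 1 is not reported here, though counts and sums include it.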

Additional observations from a re-analysis of the deposited data

How the results depend on the processing

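Against 6 receptors higher and 9 lower in KO, voom on recovered counts called 8 and 14, and fits without 1 library called 2 to 4 higher and 3 to 8 lower. Over all genes, against 622 higher and 1010 lower, 406 and 658 were called without the variance trend, 1182 and 1431 with voom, and 345 to 440 and 493 to 678 without 1 library. Fits without 1 library have fewer samples, and the cause of the differing counts was not tested for any fit. Median centring moved the split over all genes to 867 higher and 767 lower, and quantile normalization to 788 and 813, with 6 higher and 8 lower receptors under the first and 7 and 6 under the second. Equal replicate numbers did not pair the libraries (correlations of deviations 0.008, -0.051 and 0.011). With the replicate block 2 receptors were higher and 7 lower, and 360 and 585 of all genes; Adra2a, Sstr1, Chrna3, Chrna5, Vipr1, Oprd1 and Hrh3 were not called in it (limma adjusted p 0.0581 to 0.1108). No called receptor changed direction in the 16 alternatives. Of those not called, Hrh2 reversed after quantile normalization (log2 fold change 0.0117) and Npy2r after median centring (0.0024) and quantile normalization (0.0458). With 1 library left out, the log2 fold change crossed 0 in Hrh2 (-0.2454 to 0.0582), Npy2r (-0.1585 to 0.118), Chrnb1 (-0.2242 to 0.0412), Oprl1 (-0.0026 to 0.0432), Htr4 (-0.0072 to 0.2818), Htr5b (-0.3155 to 0.1751) and Htr7 (-0.0088 to 0.1013). Depth limits the 22 receptors under 0.5 TPM. They entered only the fit with no filter, except Chrnd and Chrne, which at 0 in every library entered no fit.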

Other observations

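Transcripts that mark cholinergic neurons were low in both groups. Slc18a3, the vesicular acetylcholine transporter, had 0, 1 and 0 counts in KO and 8, 10 and 5 counts in WT. Slc5a7, the choline transporter, had 9, 9 and 6 counts in KO and 19, 12 and 15 in WT, and Chat 0, 2 and 0 counts in KO and 2, 3 and 4 in WT. All 3 lay under 0.5 TPM and entered only the limma fit with no filter on low values, where Slc18a3 was lower in KO (adjusted p = 0.0187) and Slc5a7 and Chat did not pass (adjusted p = 0.14 and 0.19). They were picked after their values were seen. Cckar, the other cholecystokinin receptor, had 0.6665, 0.907 and 0.516 TPM in KO and 0.1915, 0.247 and 0.2275 TPM in WT, and was higher in KO in that fit (limma adjusted p = 0.0332), on 10 to 21 counts per KO library and 4 to 5 per WT library.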
